A study of Rattus norvegicus with 8 samples.

Results

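The genes examined here are 9 genes of MHC class I antigen processing: Psmb8, Psmb9 and Psmb10, Tap1 and Tap2, Tapbp, Erap1, B2m and Nlrc5. They were taken by symbol from a table of 23487 genes, and all 9 passed the filter on low counts that left 12124 genes for testing. The table holds RNA-seq counts of peritoneal macrophages from female Wistar rats that were 8 weeks old when 2 mg of a carbon nanotube was injected intraperitoneally. In 4 rats this was CNT-7, a needle-like multi-walled nanotube that causes mesothelioma, and in the other 4 it was CNT-T, a tangled nanotube that does not. Macrophages were sorted 15 days later as CD11b/c high and His48 dim cells, 1 library per rat. All 8 rats had received a particle, and untreated rats were not analysed here. CNT-7 rats 3, 5, 10 and 11 are compared with CNT-T rats 1, 2, 12 and 13.

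MHC class I molecules show peptides from the inside of a cell to CD8 T cells. The proteasome cuts cytosolic proteins, and interferon-gamma exchanges its catalytic subunits for those of the immunoproteasome. The TAP transporter carries the peptides into the endoplasmic reticulum, where tapasin holds empty class I molecules beside it and ERAP1 trims the peptides to length. Each class I molecule is a heavy chain, encoded in the rat by the RT1 genes, paired with beta-2-microglobulin. NLRC5 is the transactivator that drives many of these genes, as CIITA does for MHC class II.

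The sequences next to the starts of these genes are shown because interferon regulatory factors bind such regions, and the levels of some of these factors are described below. RefSeq windows of 250 bases before to 50 bases after the gene start were at hand for 7 of the 9 genes, all but Nlrc5 and Erap1. They are of the assembly GRCr8, whereas the counts were made on Rnor_6.0. The letters GAAANNGAA, or TTCNNTTTC on the other strand, were searched as a short form of the interferon response element. They are in the windows of 6 of the 7 genes, in 9.71% of all 33469 windows, and in 0 of the windows of Psmb5, Psmb6 and Psmb7. The stretches below are parts of these windows, read on the strand of the gene, and capitals mark the matches.
Psmb8, chr20:4657026-4657085, minus strand: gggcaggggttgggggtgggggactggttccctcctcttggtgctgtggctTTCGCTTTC
Psmb10, chr19:50743296-50743370, minus strand: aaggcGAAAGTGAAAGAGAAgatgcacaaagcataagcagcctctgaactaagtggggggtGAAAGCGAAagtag
Psmb9, chr20:4668750-4668951, plus strand: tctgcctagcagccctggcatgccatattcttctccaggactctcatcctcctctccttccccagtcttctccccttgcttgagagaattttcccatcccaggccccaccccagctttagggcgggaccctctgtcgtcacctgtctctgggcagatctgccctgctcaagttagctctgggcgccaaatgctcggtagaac
Tap1, chr20:4668544-4668793, minus strand: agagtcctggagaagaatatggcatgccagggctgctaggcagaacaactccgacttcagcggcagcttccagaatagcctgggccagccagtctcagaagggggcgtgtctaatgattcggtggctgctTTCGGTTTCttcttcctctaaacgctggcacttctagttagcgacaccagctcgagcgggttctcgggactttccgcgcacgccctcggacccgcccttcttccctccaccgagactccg
Tap2, chr20:4652324-4652383, minus strand: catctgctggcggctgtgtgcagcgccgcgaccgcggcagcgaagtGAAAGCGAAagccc
Tapbp, chr20:4967884-4967913, minus strand: gcctttgaggGAAAATGAAAGTGAAaggaa
B2m, chr3:129549134-129549193, plus strand: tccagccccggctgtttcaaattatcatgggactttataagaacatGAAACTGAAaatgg

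Psmb10 has 3 matches, at 73, 67 and 17 bases before the start, of which the first 2 overlap. Tapbp also has a pair that overlaps, at 26 and 20 bases. B2m has 1 match at 150 bases, Tap1 at 120, Tap2 at 41 and Psmb8 at 3. These are the positions of the first base, and the match of Psmb8 runs across the start. Psmb9 has none in its window. Its start lies 457 bases from that of Tap1 on the opposite strand, and their windows share 44 bases. The match of Tap1 lies between the starts of both genes, outside the window of Psmb9. RefSeq also places transcript of Psmb9 before the start used here, from just after the stretch shown. Of other motifs searched on both strands, TTCNNNGAA is in 1 of the 7 windows (Psmb8, where it does not overlap the other match) and in 8.87% of all windows. GGGNNTTCC, a short form of an NF-kappaB site, is in 0 of 7 and in 5.92% of all. It leaves out NF-kappaB sites with a longer spacer. The Tap1 stretch above holds gggactttcc, which this search does not match. TGACG, the core of a CREB site, is in 2 of 7 (B2m and Psmb9) and in 21.2% of all. CCAAT, the NF-Y site, is in 3 of 7 (B2m, Psmb8 and Psmb9) and in 37.5% of all. In Psmb9 it lies 22 bases after the start. Of the 3 windows of Psmb5, Psmb6 and Psmb7, TGACG is in 2, CCAAT in 1, and TTCNNNGAA and GGGNNTTCC in 0. These matches describe letters and not bound factors, and no binding was measured here.

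Of the 9 class I processing genes, 1 differed between the nanotubes. Psmb10, the immunoproteasome subunit MECL-1, was lower after CNT-7, at 0.710 times the CNT-T level. None of the 9 genes was called higher by the quasi-likelihood test of edgeR at an adjusted p-value under 0.10. By this rule 27.9% of all genes tested were called, 13.9% higher and 14% lower in CNT-7. Among the 9 genes, 0 were higher and 1 was lower, which is not more than in the table as a whole. At an unadjusted p-value under 0.05, 0 were higher and 2 lower, where 33.2% of all genes were below it. DESeq2, which called 30% of all genes, called 0 higher and 2 lower. The CPM of the 2 groups of rats did not overlap in 24.9% of all genes tested, and it overlapped in all 9 of these. The median log2 fold change of the 9 genes, CNT-7 over CNT-T, was -0.15, beside 0.0083 for all genes tested. The plot of fold changes gives the 9 genes with their counterparts and regulators.

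**Figure D1:**
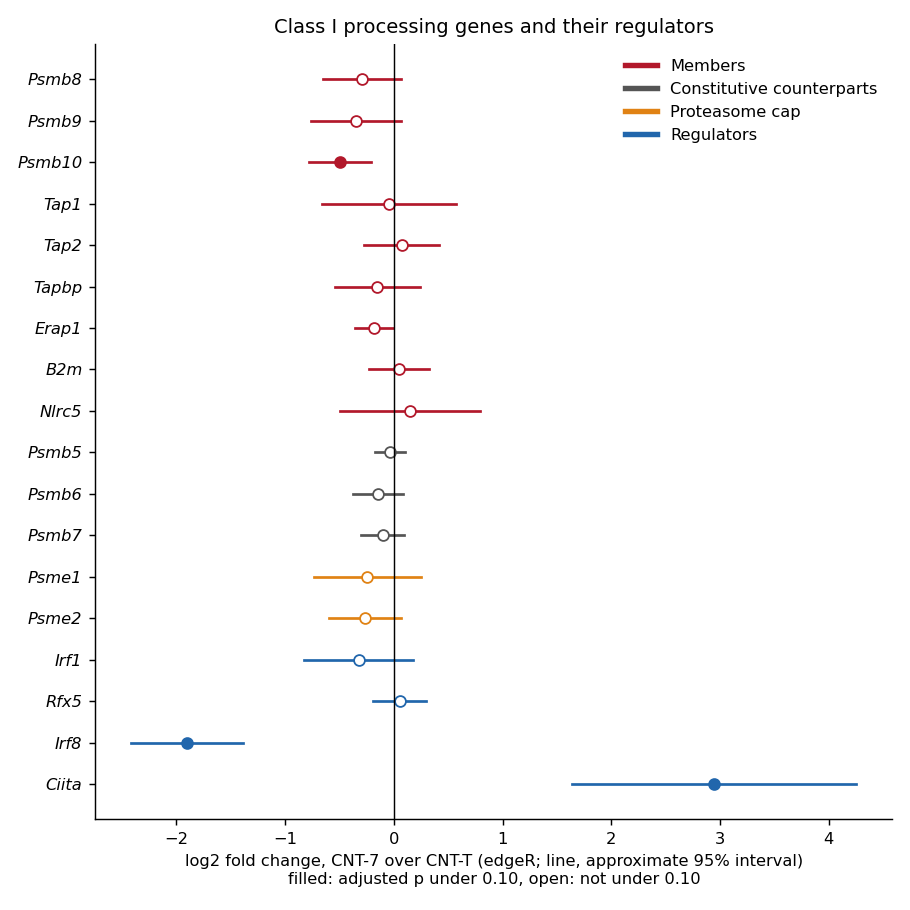
Log2 fold change (CNT-7/CNT-T) for the 9 class I processing genes, the constitutive proteasome subunits they replace, the proteasome cap genes and transcriptional regulators, from edgeR with 4 rats per group. Points are estimates, lines approximate 95% intervals and filled points have an adjusted p-value under 0.10, which among the 9 genes is Psmb10 alone, at -0.50.

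Levels are given in CPM, counts scaled to a library of 1000000 with TMM-normalized sizes. They are not corrected for the length of the gene, so that levels are compared between rats and not between genes. The 3 immunoproteasome subunits are the catalytic beta subunits that take the place of constitutive ones. Psmb10 (ENSRNOG00000019494), which takes the place of Psmb7, had 115, 107, 100.02 and 148 CPM in CNT-7 rats 3, 5, 10 and 11. It had 162, 176, 179 and 144 CPM in CNT-T rats 1, 2, 12 and 13. Rat 11 of the CNT-7 group was therefore just above rat 13 of the CNT-T group, and the other 3 CNT-7 rats were below every CNT-T rat. The means were 118 ± 21.3 and 166 ± 16 CPM (SD, n = 4 each). The log2 fold change was -0.50, with a standard error of 0.13 and an interval from -0.78 to -0.21 (edgeR adjusted p = 0.0218). It was called in all 8 fits that left out 1 rat, with fold changes from -0.63 to -0.42.

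Psmb8 (ENSRNOG00000000456), the subunit LMP7 in place of Psmb5, had 166, 138, 132 and 221 CPM in CNT-7 rats 3, 5, 10 and 11 and 218, 206, 212 and 169 CPM in CNT-T rats 1, 2, 12 and 13. The highest and the lowest of the 8 rats were both CNT-7 rats. The means were 164 ± 40.5 and 201 ± 22.3 CPM, and the log2 fold change of -0.29 (interval -0.65 to 0.07) did not pass the test (edgeR adjusted p = 0.237). Psmb9 (ENSRNOG00000000459), the subunit LMP2 in place of Psmb6, had 77.1, 67.9, 52.2 and 99.5 CPM in the CNT-7 rats and 103, 106, 95.6 and 74.5 CPM in the CNT-T rats, in the same order of rats. As for Psmb10, rat 11 was the highest of the CNT-7 group and rat 13 the lowest of the CNT-T group. The log2 fold change was -0.35 (interval -0.76 to 0.06, edgeR adjusted p = 0.219), on means of 74.2 ± 19.8 and 94.6 ± 14 CPM. Whether these 2 genes passed depended on CNT-7 rat 11. Without it the log2 fold changes were -0.47 for Psmb8 (edgeR adjusted p = 0.0207) and -0.53 for Psmb9 (edgeR adjusted p = 0.0429), and 3 of the 9 genes were lower, in a fit that called 28.7% of all genes. The plot of each rat's levels shows this for all 9 genes.

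**Figure D2:**
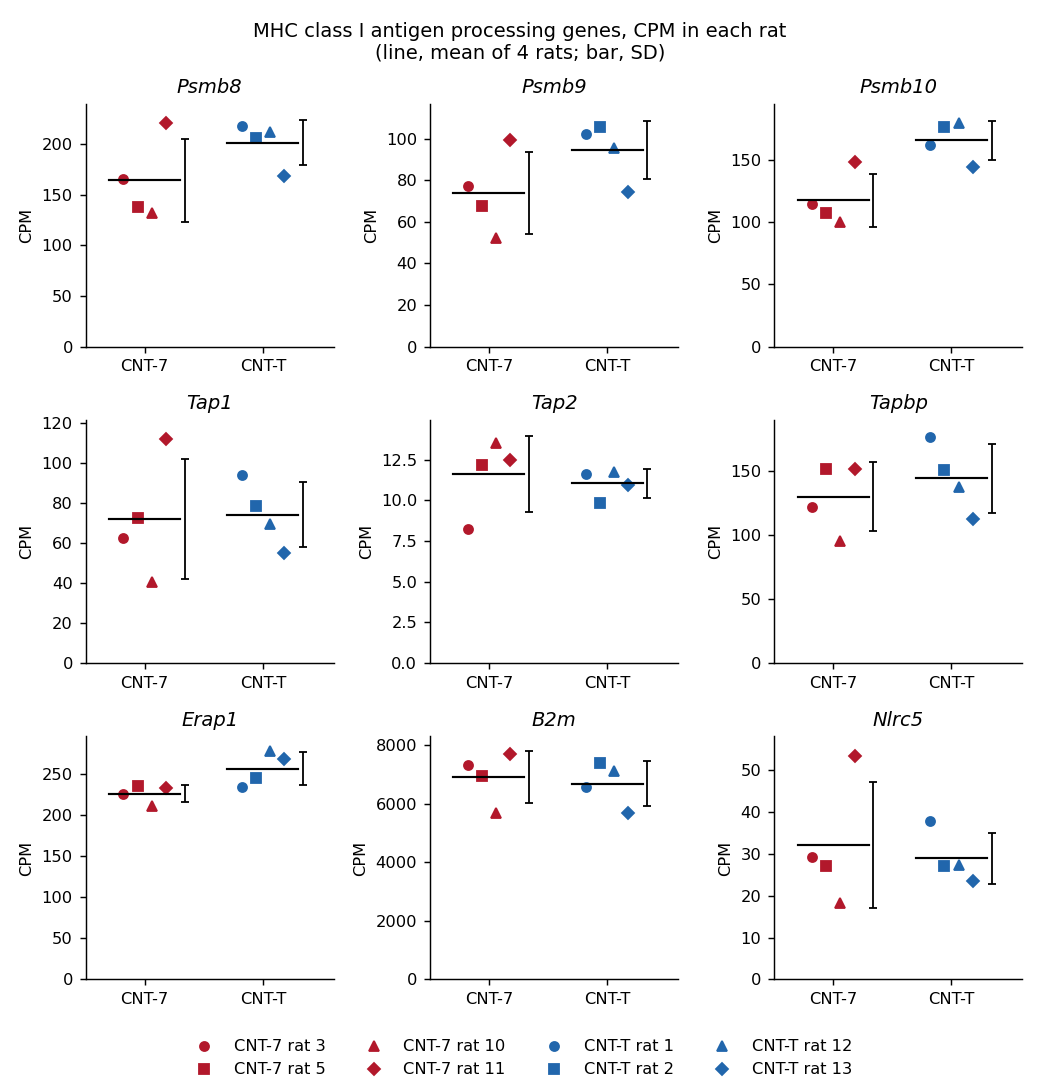
CPM of the 9 class I processing genes in each rat, with a panel and a linear axis from 0 for each gene; symbols are rats, lines means and bars SD over 4 rats. CNT-7 rat 11 stands above the other CNT-7 rats for Nlrc5 (53.5 CPM), Tap1 (112 CPM), Psmb8 (221 CPM), Psmb9 (99.5 CPM) and Psmb10 (148 CPM).

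The constitutive counterparts varied less between the rats, and none passed the test with all 8. Psmb5 was at 66.2 ± 1.38 and 67.8 ± 3.71 CPM, with a log2 fold change of -0.04 (edgeR adjusted p = 0.739). Psmb6 was at 83.8 ± 3.38 and 92.7 ± 13.1 CPM (-0.15, edgeR adjusted p = 0.357) and passed in the fit without CNT-T rat 13 (-0.23, edgeR adjusted p = 0.0598). Psmb7 was at 122 ± 9.14 and 131 ± 12 CPM (-0.10, edgeR adjusted p = 0.449). The share of immunoproteasome to constitutive subunit was then taken within each rat, where library size cancels. The ratio of Psmb8 to Psmb5 CPM was 2.57, 2.05, 1.96 and 3.35 in CNT-7 rats 3, 5, 10 and 11 and 3.28, 2.87, 3.05 and 2.66 in CNT-T rats 1, 2, 12 and 13. The CNT-7 ratios lay on both sides of all CNT-T ratios, with CNT-7 rat 11 above them and the other 3 below.

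On the log2 scale the CNT-7 ratio minus the CNT-T ratio was -0.28 for Psmb8/Psmb5 (1.28 ± 0.36 and 1.56 ± 0.13, exact permutation p = 0.2). For Psmb9/Psmb6 it was -0.24 (-0.21 ± 0.34 and 0.03 ± 0.085, exact permutation p = 0.229). For Psmb10/Psmb7 it was -0.40 (-0.07 ± 0.25 and 0.34 ± 0.14, exact permutation p = 0.0571). These tests were two-sided. They used all 70 ways to divide 8 rats into 4 and 4, so that p cannot fall below 0.0286. Adjusted over the 4 ratios tested, the p-values were 0.229, 0.229 and 0.114 (exact permutation), and no ratio passed. A ratio at the smallest p adjusts to 0.114 unless other ratios are also low, so that it could not pass on its own. Without CNT-7 rat 11 the differences were -0.44, -0.38 and -0.51, each with an adjusted exact permutation p of 0.0381. The plot of ratios gives each rat.

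**Figure D3:**
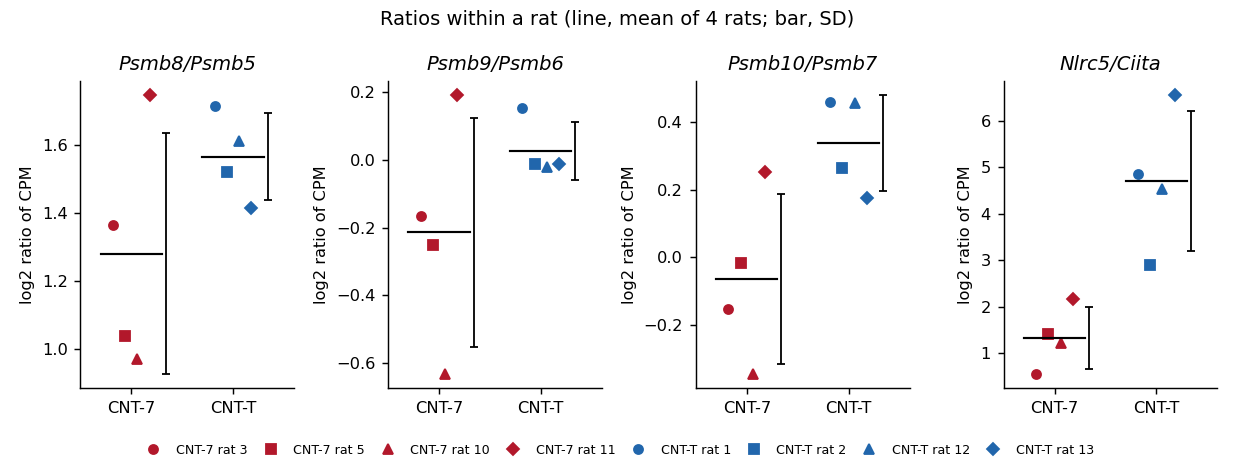
Log2 ratio of CPM within each rat for the 3 immunoproteasome subunits over the constitutive subunits they replace, and for Nlrc5 over Ciita; symbols are rats, lines means and bars SD over 4 rats, and axes do not start at 0. CNT-7 rat 11 lies among or above the CNT-T rats in the first 3 panels, and the groups do not overlap for Nlrc5/Ciita.

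Tap1, Tap2, Tapbp and Erap1, the genes of peptide transport and loading among the 9, did not pass the test with all 8 rats. Tap1 (ENSRNOG00000000457), one chain of the peptide transporter, had 62.7, 72.6, 40.6 and 112 CPM in CNT-7 rats 3, 5, 10 and 11 and 93.9, 78.5, 69.6 and 54.9 CPM in CNT-T rats 1, 2, 12 and 13. The CNT-7 rats spanned a wider range on both sides than the CNT-T rats. The means of 72.0 ± 29.9 and 74.2 ± 16.3 CPM gave a log2 fold change of -0.04, whose interval reached from -0.66 to 0.57 (edgeR adjusted p = 0.932). Tap2 (ENSRNOG00000046031), the other chain, had 8.21, 12.2, 13.5 and 12.5 CPM in the CNT-7 rats and 11.6, 9.84, 11.8 and 11 CPM in the CNT-T rats. It was the only 1 of the 9 genes in which CNT-7 rat 10 was not the lowest of its group. Its log2 fold change was 0.07 (interval -0.27 to 0.42, edgeR adjusted p = 0.791), on means of 11.6 ± 2.34 and 11.1 ± 0.881 CPM and at least 250 counts in every rat.

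Tapbp (ENSRNOG00000029500), which encodes tapasin, had 122, 152, 95.1 and 151 CPM in CNT-7 rats 3, 5, 10 and 11 and 177, 150, 138 and 112 CPM in CNT-T rats 1, 2, 12 and 13. Values of both groups were mixed. The means were 130.04 ± 27.1 and 144 ± 26.8 CPM, and the log2 fold change was -0.15 (interval -0.54 to 0.24, edgeR adjusted p = 0.595). Erap1 (ENSRNOG00000009997), the peptide-trimming aminopeptidase, had 225, 235, 211 and 233 CPM in the CNT-7 rats and 234, 245, 278 and 268 CPM in the CNT-T rats. It varied less between rats than any other of the 9 genes, and the groups met only at CNT-7 rat 5 and CNT-T rat 1. Its means were 226 ± 10.7 and 256 ± 20.2 CPM, and its log2 fold change was -0.18 (interval -0.35 to -0.01). Over all genes this did not pass with edgeR (adjusted p = 0.128). It passed with DESeq2 (-0.19, adjusted p = 0.0862) and in the edgeR fit without CNT-T rat 1 (-0.22, adjusted p = 0.0812), which called 26.9% of all genes.

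B2m (ENSRNOG00000017123), the light chain of every class I molecule, had 7324, 6955, 5666 and 7687 CPM in CNT-7 rats 3, 5, 10 and 11 and 6563, 7379, 7127 and 5662 CPM in CNT-T rats 1, 2, 12 and 13. The lowest rats of the groups, rat 10 and rat 13, had nearly the same level. The means of 6908 ± 880 and 6683 ± 761 CPM gave a log2 fold change of 0.05 (interval -0.23 to 0.33, edgeR adjusted p = 0.826), with at least 156915 counts per rat. Nlrc5 (ENSRNOG00000048222), the class I transactivator, had 29.3, 27.1, 18.4 and 53.5 CPM in the CNT-7 rats and 37.8, 27.2, 27.3 and 23.6 CPM in the CNT-T rats. CNT-7 rats 10 and 11 were the lowest and the highest of the 8 rats. The log2 fold change was 0.14 (interval -0.50 to 0.79, edgeR adjusted p = 0.770), on means of 32.1 ± 15.0 and 29.0 ± 6.13 CPM. The intervals of Tap1 and Nlrc5 were the widest of the 9 genes.

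Ciita, the class II transactivator, was higher after CNT-7. It had 20.1, 10.3, 7.94 and 11.9 CPM in CNT-7 rats 3, 5, 10 and 11 and 1.30, 3.67, 1.19 and 0.251 CPM in CNT-T rats 1, 2, 12 and 13. Every CNT-7 rat was above every CNT-T rat, with a log2 fold change of 2.94 and a standard error of 0.58 (edgeR adjusted p = 0.0071). All 6 genes of the class II list were higher, Ciita included, with a median log2 fold change of 2.82. Of all genes tested 13.9% were higher. The ratio of Nlrc5 to Ciita CPM within a rat was 1.46, 2.64, 2.31 and 4.51 in the CNT-7 rats and 29.0, 7.43, 23.0 and 94.3 in the CNT-T rats. Ciita had only 7 counts in CNT-T rat 13, so that the ratio of 94.3 is imprecise. For the same reason Ciita was not tested under the filter of 10 counts in every rat. On the log2 scale it was 1.33 ± 0.67 and 4.71 ± 1.503, a difference of -3.38. The groups did not overlap, which gives the smallest exact permutation p of 0.0286. Adjusted over the 4 ratios it was 0.114 (exact permutation), and 1 ratio alone at the smallest p cannot adjust to less. Whether this ratio passed under 0.10 therefore depended on the p-values of the other ratios. Without CNT-7 rat 11 it was 0.0571 (adjusted exact permutation), in a fit where the other ratios were each at 0.0381 (adjusted exact permutation). In the 7 other fits that left out 1 rat the ratio did not pass, with p up to 0.229 (adjusted exact permutation).

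The spread within the CNT-7 group went one way for most of the 9 genes. CNT-7 rat 10 was the lowest of its group in 8 of the 9 genes and rat 11 the highest in 6, whereas over all genes rat 10 was the lowest in 28.3% and rat 11 the highest in 26.9%. Both held in 6 of the 9 genes and in 13.3% of all genes. In the CNT-T group rat 13 was the lowest in 7 of the 9 genes and in 29.6% of all genes. The low ends were shared by some related lists. Rat 10 was also the lowest in 6 of 6 class II genes, 8 of 16 transcription regulators and 3 of 4 class I-like chains. It was so in 1 of 14 constitutive 20S subunits and 0 of 6 interferon-gamma signalling genes. Rat 13 was the lowest in 6 of 6 class II genes, 10 of 16 regulators and 0 of 4 class I-like chains. Rat 11 was the highest in 0 of 6 class II genes. The level in rat 11 was 2.91 times that in rat 10 for Nlrc5, 2.76 times for Tap1, 1.91 times for Psmb9, 1.67 times for Psmb8, 1.59 times for Tapbp, 1.48 times for Psmb10, 1.36 times for B2m, 1.10 times for Erap1 and 0.922 times for Tap2. The SD of log2 CPM was larger among CNT-7 than CNT-T rats in 8 of the 9 genes, all but Erap1, and in 51.1% of all genes. Its median over the 9 genes was 0.32 in CNT-7 and 0.17 in CNT-T, beside 0.16 in both groups over all genes. Of the 8 macrophage markers, CNT-7 rat 11 was also the highest of its group in 7 (all but Lyz2) and rat 10 the lowest in 5, with a level in rat 11 of 2.11 times that in rat 10 for Mertk, 1.54 times for Fcgr1a and a median of 1.22 times. Rat 13 was the lowest of the CNT-T group in 4 of the 8 markers. The part of this in the spread of the 9 genes was not tested. These counts describe the rats, and the 9 genes are not independent of each other. The map of levels by rat shows the pattern.

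**Figure D4:**
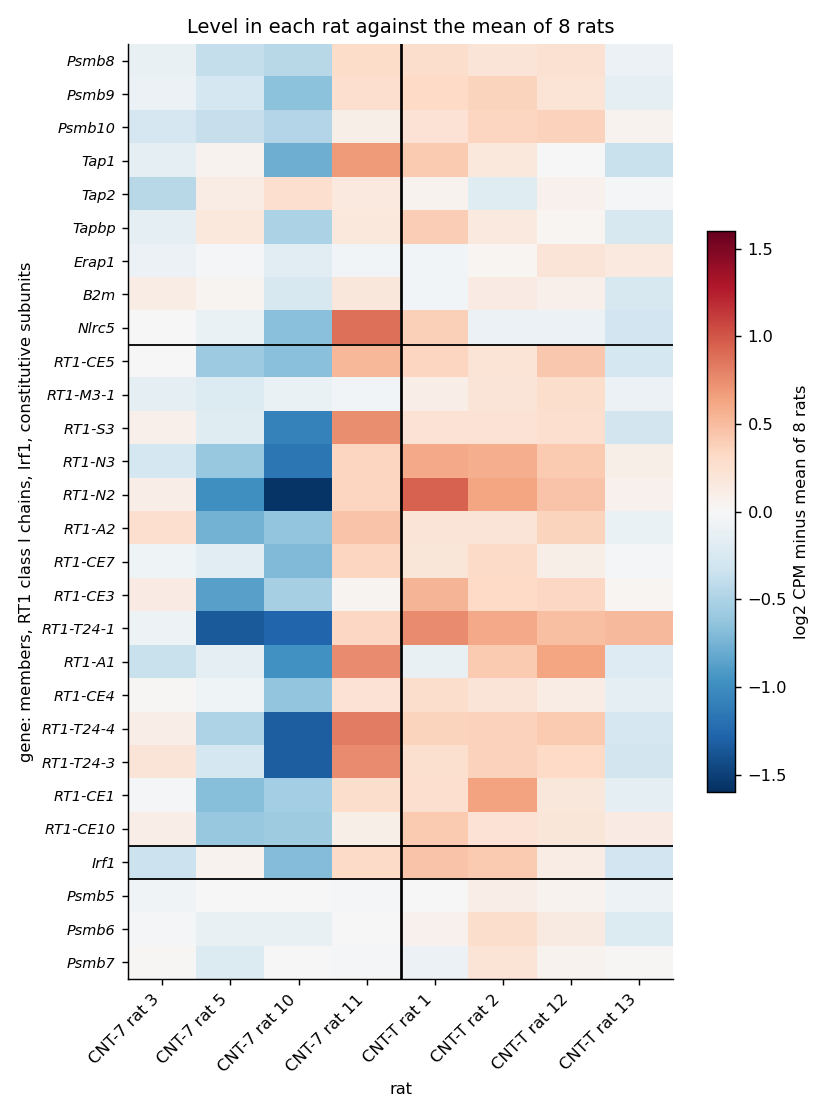
Log2 CPM of each gene in each rat minus its mean over the 8 rats, in colour, for the 9 class I processing genes, the tested RT1 class I heavy chain genes, the interferon regulator Irf1 and 3 constitutive proteasome subunits, separated by lines. CNT-7 rat 10 is below and CNT-7 rat 11 above the mean in most rows of the first 3 blocks, while Psmb5, Psmb6 and Psmb7 are pale in all rats.

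The class I heavy chain genes also spread most between CNT-7 rats 10 and 11. Of 21 RT1 class I genes in the table, 15 passed the filter. Their reads come from similar and polymorphic genes that the quantification may have divided, and Wistar rats need not carry the alleles of the reference, so single RT1 genes are uncertain. Rat 10 was the lowest of the CNT-7 group in 9 of the 15 and rat 11 the highest in 13. Rat 11 was at or above 1.5 times rat 10 in 13 of the 15, with a median of 2.29 times, compared with 5 of the 9 processing genes (median 1.59), 0 of 14 constitutive 20S subunits (median 1.03) and 11.4% of all genes (median 0.987). It was so in 5 of 16 transcription regulators, 2 of 6 class II genes and 0 of 6 interferon-gamma signalling genes. The median SD of log2 CPM over the 15 was 0.62 in CNT-7 and 0.24 in CNT-T. RT1-CE5, at the highest level of the 15, had 375, 250, 235 and 539 CPM in CNT-7 rats 3, 5, 10 and 11 and 472, 433, 502 and 306 CPM in CNT-T rats 1, 2, 12 and 13. CNT-7 rat 11 was again the highest of all.

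In the comparison of the nanotubes, 5 of the 15 heavy chain genes were lower and 0 higher in CNT-7, all 15 had a negative fold change, and the median was -0.27. Over all genes tested 14% were lower and 13.9% higher, and 5923 of 12124 had a negative fold change. The 5 lower heavy chain genes were RT1-T24-1 (log2 fold change -0.997), RT1-N3 (-0.76), RT1-CE3 (-0.57), RT1-CE10 (-0.45) and RT1-M3-1 (-0.26). Means were 7.69 ± 4.32 and 15.3 ± 1.31 CPM for RT1-T24-1 and 49.1 ± 21.5 and 83.1 ± 13 CPM for RT1-N3. None of the 5 at the highest level passed, namely RT1-CE5 (350 ± 141 and 428 ± 86.4 CPM), RT1-S3 (235 ± 115 and 251 ± 42.1), RT1-CE7 (124 ± 35.8 and 147 ± 13.9), RT1-T24-4 (110 ± 65.5 and 133 ± 26.7) and RT1-A2 (103 ± 42.2 and 122 ± 15.6). The number of lower calls depended on the fit. It was 2 with the range of rat numbers as a block. It was 10 without CNT-7 rat 11, 3 without CNT-7 rat 3 or CNT-T rat 13, 1 without CNT-T rat 1, and 0 without CNT-7 rat 5, CNT-7 rat 10, CNT-T rat 2 or CNT-T rat 12. Of the class I-like chains Cd1d1, Fcgrt, Hfe and Mr1, 0 were higher and 1 of 4 was lower, Hfe, the iron regulator (-0.59, edgeR adjusted p = 0.0587), which passed in 4 of the 8 fits that left out a rat.

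Of a list of transcription regulators known from MHC and interferon-responsive genes, 1 of 16 was higher (Ciita) and 2 were lower. Over all genes tested 13.9% were higher and 14% lower. Irf8, a factor of monocyte and dendritic cell development, was lower, at 24.3 ± 7.77 against 90.9 ± 21.6 CPM (log2 fold change -1.90, edgeR adjusted p = 0.0007). Nfya, a subunit of the CCAAT-binding factor NF-Y, was lower by a small step (-0.23, edgeR adjusted p = 0.0810). It passed in 2 of the 8 fits that left out a rat and not with the range of rat numbers as a block (edgeR adjusted p = 0.101). Irf1, which interferon-gamma induces, was at 81.8 ± 24.1 and 102 ± 23.1 CPM (-0.32, edgeR adjusted p = 0.358). Rfx5, a subunit of the factor on which NLRC5 and CIITA assemble, was at 34.1 ± 3.08 and 32.8 ± 4.45 CPM (0.06, edgeR adjusted p = 0.768).

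Of the interferon-gamma signalling genes, 3 of 6 tested were higher in CNT-7 and 0 were lower, with a median log2 fold change of 0.19. Of all genes tested 13.9% were higher and 14% lower, with a median of 0.0083. Socs1, an inhibitor of the receptor's kinases, was at 3.20 ± 0.928 against 0.581 ± 0.264 CPM (2.45, edgeR adjusted p = 0.0018). Jak2, a kinase of the receptor, was at 123 ± 12.6 against 81.5 ± 6.34 CPM (0.59, edgeR adjusted p = 0.0024), and Ifngr2, a receptor chain, at 111 ± 6.03 against 89.5 ± 6.91 CPM (0.31, edgeR adjusted p = 0.0185). All 3 were called in each of the 8 fits that left out a rat. Ifng itself had 0 counts in all 8 rats, where 3 counts, the limit that a count of 0 allows, correspond to between 0.0887 and 0.109 CPM.

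Few of the other genes of the pathway passed the test, which 27.9% of all genes tested passed. Of 14 constitutive 20S subunits 0 were higher and 1 was lower, Psmb2 (-0.22, edgeR adjusted p = 0.0386), and the median log2 fold change was -0.11. Of 10 genes of proteasome caps and assembly 1 was higher, Psme4, the activator PA200 (0.31, edgeR adjusted p = 0.0685), and 1 was lower, the assembly chaperone Psmg1 (-0.24, edgeR adjusted p = 0.0724). The PA28 cap genes, which interferon-gamma also induces, were at 206 ± 70.9 and 245 ± 31.6 CPM for Psme1 (-0.24, edgeR adjusted p = 0.482) and 206 ± 42.9 and 248 ± 29.6 CPM for Psme2 (-0.27, edgeR adjusted p = 0.253). Of 7 loading helpers of the endoplasmic reticulum 0 were higher and 1 was lower, the glucosyltransferase Uggt1 (-0.21, edgeR adjusted p = 0.0659). Of 6 cytosolic peptidases tested, the puromycin-sensitive aminopeptidase Npepps was higher (0.26, edgeR adjusted p = 0.0490) and bleomycin hydrolase Blmh lower (-0.32, edgeR adjusted p = 0.0248). Blmh was called in all 8 fits that left out a rat, Psmb2 in 7, Npepps in 4, and Psme4, Psmg1 and Uggt1 in 2.

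The genes most alike to the 9 in profile were found among 10866 genes by the root mean square difference of z-scored log2 CPM over the 8 rats, where 0 is an identical profile. The nearest gene was Psme2 for Psmb9 (0.159), Rbm43 for Psmb8 (0.143), Dnph1 for Psmb10 (0.155) and Qpctl for Tap1 (0.174). It was Grpel2 for Erap1 (0.235), Fbxo39 for B2m (0.244), Kifc3 for Tapbp (0.290) and Galnt12 for Tap2 (0.380). For Nlrc5 the nearest gene is not reported here, and the next was Ogfr (0.249). Among the 9 genes, the closest pairs were Psmb8 with Psmb9 (0.276), Tap1 with Nlrc5 (0.336) and Psmb8 with Psmb10 (0.398). With 8 rats and many genes, close profiles are found for many genes, and no test was made.

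The libraries held between 27195157 and 33732981 counts. All 8 macrophage markers passed the filter, 1 higher and 4 lower in CNT-7, beside 13.9% and 14% of all genes tested. Their summed level was 15202 to 22334 CPM in CNT-7 and 23703 to 33919 CPM in CNT-T. Lyz2 made up most of this, and without it the sum was 2738, 2716, 2466 and 3005 CPM in CNT-7 rats 3, 5, 10 and 11 and 3820, 3717, 3419 and 3174 CPM in CNT-T rats 1, 2, 12 and 13. Markers of other cells were low. In CNT-7 and CNT-T their sums were 4.63 to 12.4 and 3.75 to 4.40 CPM for 7 T cell markers (Cd2 higher), 3.61 to 5.33 and 2.64 to 5.34 CPM for 5 of NK cells, 0.164 to 2.78 and 0.148 to 0.456 CPM for 4 of B cells, and 13.4 to 19.1 and 7.34 to 15.7 CPM for 6 of dendritic cells, of which 3 were higher. They were 2.39 to 8.24 and 5.14 to 10.1 CPM for 6 of neutrophils (S100a8 lower, Mpo at 0), 0.181 to 9.33 and 0.107 to 0.359 CPM for 4 of eosinophils (Epx at 0), 0.526 to 1.41 and 0.0296 to 2.04 CPM for 5 of mast cells, and 0 to 0.302 and 0 to 0.130 CPM for 5 of mesothelial cells (Upk3b and Wt1 at 0). The T and B cell sums were highest in CNT-7 rat 5 and the eosinophil sum in CNT-7 rat 3, and in the CNT-7 group the mast cell sum was highest in rat 11. Within that group the NK, dendritic, neutrophil and mesothelial sums were also highest in rat 5. The part of other cells in the levels was not tested. In such bulk samples, fewer cells of a type and less RNA per cell cannot be told apart.

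Fold changes with each rat left out show which of the 9 results depended on a rat. The sign of Psmb8, Psmb9, Psmb10, Tapbp and Erap1 was negative in all 8 fits. Tap1 ran from -0.34 without CNT-7 rat 11 to 0.15 without CNT-7 rat 10, and Nlrc5 from -0.22 to 0.34 in the same fits. B2m ran from -0.03 to 0.13 and Tap2 from -0.01 to 0.21.

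**Figure D5:**
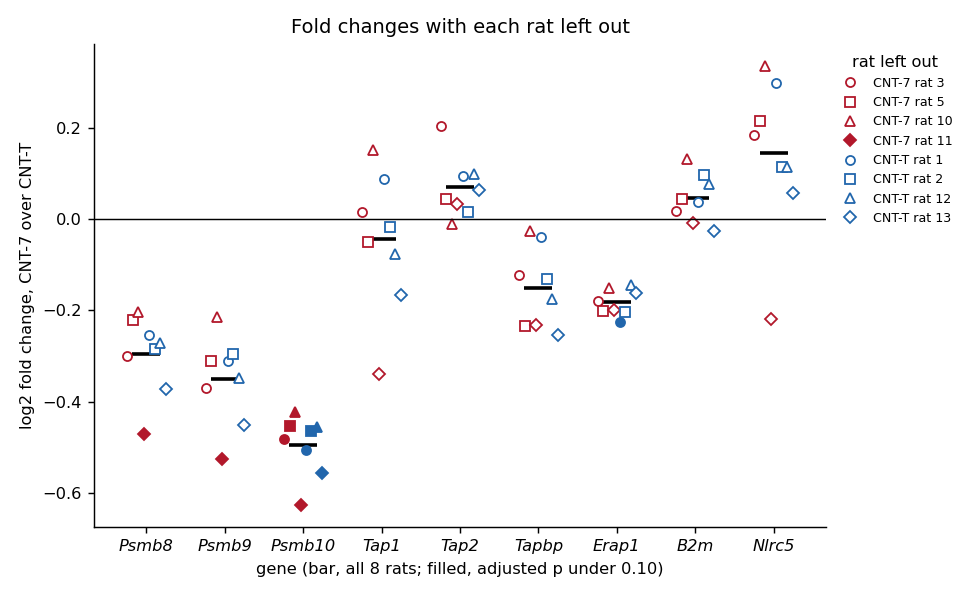
Log2 fold change (CNT-7/CNT-T) of the 9 class I processing genes with each rat left out in turn (symbols) and with all 8 rats (bars); filled symbols have an edgeR adjusted p-value under 0.10. Psmb10 is filled throughout, and Psmb8 and Psmb9 only without CNT-7 rat 11.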

How the data were processed

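RNA was sequenced from sorted peritoneal macrophages of 4 CNT-7 and 4 CNT-T rats (TruSeq stranded mRNA, HiSeq). The authors ran the ARMOR workflow, in which FastQC checked the reads, Salmon (version not given in the sources used here) quantified them against Ensembl rat cDNA of Rnor_6.0, and tximeta imported the estimates. The authors deposited these as estimated counts per gene without normalization. Here the counts were rounded to whole numbers. All columns were used, and groups and rat numbers came from the labels. 

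The study used edgeR with calls under 0.10. Here edgeR (4.0.16, in R 4.3.3) tested the counts by quasi-likelihood, with TMM normalization (factors 0.974 to 1.03), the filter of filterByExpr (minimum count 10, minimum total 15) and Benjamini-Hochberg adjustment over 12124 genes, called under 0.10. Standard errors of log2 fold changes were derived from the F statistic, and intervals are approximate 95% intervals. CPM use TMM-normalized library sizes. Ratios were compared by two-sided exact permutation tests. The floor of 3 counts covers counting error alone, since no molecular identifiers were used. P-values set the difference between the groups against the spread between rats.

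The members and lists were chosen with earlier results of these data known. The genes named are the 9 members, up to 5 genes per list with the largest change among those called, 8 set counterparts and regulators, and the 5 RT1 class I genes at the highest level. Nrd1 in the peptidase list is an older symbol of Nrdc, counted once. A further regulator is not reported here. The markers Klrb1a and Cd79a were not used here.

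Alternatives were DESeq2 1.42.0, upper-quartile and RLE normalization, no filter, a stricter filter of 10 counts in all rats, calls under 0.05, calls of 2-fold or more, a block for the range of the rat numbers, and fits that each left out 1 rat. The scripts were tested on simulated data. Promoter windows are from RefSeq (GRCr8). No sequence was read from the authors' assembly.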

Additional observations from a re-analysis of the deposited data

Results flagged for a closer look

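In groups of 4 rats, 94 sets of values were examined for a rat far from the other 3, and about 4.7 would be found by chance at Dixon's 95% critical gap. The search found 5, and none concerned the level of a class I processing gene itself. RT1-S3 was lowest in CNT-T rat 13, at 189 CPM against 269 to 277 CPM in the other 3, a gap of 0.915 of the range. RT1-T24-4 was also lowest in CNT-T rat 13, at 92.7 CPM against 144 to 149 CPM, a gap of 0.903. The same rat was the lowest of its group in 7 of the 9 processing genes. The log2 ratio of Psmb9 to Psmb6 was highest in CNT-T rat 1, at 0.155, against -0.020 to -0.013 in the other 3, a gap of 0.961. Psmb7 was lowest in CNT-7 rat 5, at 108 CPM against 124 to 128 CPM, a gap of 0.840. Blmh was lowest in CNT-T rat 12, at 86.8 CPM against 94.8 to 95.6 CPM, a gap of 0.910.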

How the results depend on the processing

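The number of class I processing genes called was 1 with all rats, 2 with DESeq2 (Erap1 added), 0 with at least a 2-fold change, and 1 to 3 when each rat was left out (3 without CNT-7 rat 11 and 2 without CNT-T rat 1). It was 1 under upper-quartile and RLE normalization, without a filter, with at least 10 counts in every rat, at an adjusted p-value under 0.05 and with the range of rat numbers as a block. None was called higher in any of these. With that block the lower calls went from 5 to 2 for RT1 class I heavy chains and from 2 to 1 for transcription regulators. Of 83 tested genes of the surrounding lists 23 were called, where 27.9% of all genes tested were called. There were 13 with adjusted p under 0.05, 8 with at least a 2-fold change, and 12 to 26 when each rat was left out (12 without CNT-7 rat 5, 13 without CNT-T rat 12, 14 without CNT-T rat 2 and 15 without CNT-7 rat 10). The cause was not tested. With each rat left out, the log2 ratio difference ran from -0.44 to -0.18 for Psmb8/Psmb5, -0.38 to -0.10 for Psmb9/Psmb6, -0.51 to -0.31 for Psmb10/Psmb7 and -3.98 to -2.76 for Nlrc5/Ciita. The log2 fold change changed sign for B2m (-0.025 to 0.13), Tap1 (-0.34 to 0.15), Tap2 (-0.010 to 0.21), Nlrc5 (-0.22 to 0.34), Rfx5 (-0.010 to 0.13) and RT1-S3 (-0.44 to 0.14), none of which passed the test with all rats. The other normalizations moved the median of all genes by less than 0.1 on the log2 scale. No paired analysis was possible because the groups share no rat number. With 4 rats per group, intervals of Tap1 and Nlrc5 span more than 1 log2 unit, and the 9 genes had at least 250 counts in every rat.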

Other observations

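RT1-M6-1, an RT1 class I gene chosen after its values were seen, did not pass the filter on low counts. It had 26.3 CPM in CNT-T rat 1 and between 0.0358 and 0.302 CPM in the other 7 rats. The genes nearest in profile to Tap1 after Qpctl were Ifi47 (0.208) and Helz2 (0.214), and the next after Rbm43 for Psmb8 were Gsdmd (0.201) and RT1-CE5 (0.221). The next after Kifc3 for Tapbp was Irf1 (0.300). These are root mean square differences of z-scored log2 CPM over 8 rats, given as a description with no test.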
